A study of Mus musculus with 4 samples.

Results

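The Krüppel-like factors (KLF) are transcription factors that bind CACCC boxes and GC-rich sites through C-terminal zinc fingers, and mRNA of 10 of their genes, Klf1, Klf2, Klf3, Klf4, Klf6, Klf7, Klf9, Klf10, Klf11 and Klf13, was compared here in leukemic and normal immature erythroid cells of the mouse. The 10 genes were matched by a single gene symbol among the 19938 genes with a symbol of their own on the array, and 10 of 10 were found, each with 1 probe set. MEL cells are a murine erythroleukemia line, here clone DS19 stably carrying Gata-1 fused to the ligand-binding domain of the estrogen receptor (ER), and grew in serum with puromycin. ES-EP are erythroid progenitors derived from embryonic stem cells, grown without serum in StemPro34 to which dexamethasone, erythropoietin, SCF (a ligand of the receptor Kit) and IGF-1 were added. Both were proliferating, and each had 2 arrays, A and B, from duplicate cultures. Cell type and medium differed together and cannot be told apart, the MEL line is 1 clone, and the error behind each p-value is that between duplicate cultures alone. RNA was taken from the bulk culture, so fewer cells with a transcript and less of it per cell cannot be told apart.

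KLF1, the founding member, drives the genes of the red cell skeleton, heme synthesis and adult globin, and its loss blocks the formation of mature red cells. The family falls into classes by the cofactors that its N-terminal parts recruit. KLF1, KLF2, KLF4, KLF5, KLF6 and KLF7 recruit acetyltransferases and often activate genes, KLF3, KLF8 and KLF12 recruit the corepressor CtBP, and KLF9, KLF10, KLF11, KLF13, KLF14 and KLF16 recruit the corepressor SIN3A. Members of different classes can bind the same CACCC box, which is how KLF3, itself transcribed under KLF1, dampens genes that KLF1 activates.

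Promoter sequences are printed, those of Klf1, the erythroid activator, of Klf3, its target and competitor, and of Klf9, whose signal differed the most between the cell types. Each runs from 250 bases before to 50 bases after the annotated start, 5′ to 3′ on the gene's strand, from RefSeq on GRCm38.p6. Capitals mark CACCC boxes (CACCC), KLF sites (CCNCNCCC) and GATA sites (AGATAA, also searched with a T in front and with a final G) on either strand, with overlapping matches run together. The stretches are chr8:84901732-84902031 on the plus strand for Klf1, chr5:64803271-64803570 on the plus strand for Klf3, and chr19:23140976-23141275 on the plus strand for Klf9.
Klf1: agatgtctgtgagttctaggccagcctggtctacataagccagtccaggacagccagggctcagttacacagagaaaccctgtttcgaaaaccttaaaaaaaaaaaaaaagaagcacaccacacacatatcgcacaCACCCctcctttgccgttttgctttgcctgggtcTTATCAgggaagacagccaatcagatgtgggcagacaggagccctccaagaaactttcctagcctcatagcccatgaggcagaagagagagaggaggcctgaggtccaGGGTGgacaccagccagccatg
Klf3: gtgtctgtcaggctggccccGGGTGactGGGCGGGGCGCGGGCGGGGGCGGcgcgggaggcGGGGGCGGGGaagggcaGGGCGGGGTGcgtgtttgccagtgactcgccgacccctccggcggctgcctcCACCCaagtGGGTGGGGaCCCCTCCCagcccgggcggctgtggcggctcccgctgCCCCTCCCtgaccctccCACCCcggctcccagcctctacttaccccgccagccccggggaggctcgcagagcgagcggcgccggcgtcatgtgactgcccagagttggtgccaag
Klf9: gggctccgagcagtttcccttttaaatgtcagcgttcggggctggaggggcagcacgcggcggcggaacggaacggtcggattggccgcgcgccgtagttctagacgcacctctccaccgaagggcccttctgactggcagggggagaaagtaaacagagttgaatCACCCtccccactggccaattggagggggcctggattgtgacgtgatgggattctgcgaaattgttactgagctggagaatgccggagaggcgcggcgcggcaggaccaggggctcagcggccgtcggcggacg

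The Klf1 stretch held a CACCC box starting at position -114, a GATA site at -80 and a second CACCC box at 29, counted from the annotated start without a 0 and by the leftmost base of each match. It held no KLF site and no GC box (GGGCGG), and its GC content was 51.3%. The Klf3 stretch differed, with a GC content of 76.7%, 5 CACCC boxes, 10 KLF sites, some of them overlapping, and 6 GC boxes before the start. A single CACCC box at -84 was the only one of these motifs in the Klf9 stretch, where the GC content was 63.3%. These matches describe letters in a window and not sites of binding.

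Promoters were on hand for 9 of the 10 genes, all but Klf10. CACCC boxes were found in 6 of the 9, and in 57.5% of 32851 mouse promoters of the same length. KLF sites were found in 7 of the 9 (49.5% of all promoters), and so were GC boxes (35.7%), which the KLF site overlaps. A GATA site was held by 2 of the 9, Klf1 and Klf2, and by 29.8% of all promoters. The PU.1 site searched (GAGGAAG) and the half-site of the glucocorticoid receptor (AGAACA) were in 0 of the 9, and in 13.6% and 19.0% of all promoters. Only these exact letters were searched, so a missing match does not show missing binding. The authors reported PU.1 bound close to the start of Klf1 or inside its transcribed part in both cell types. The GC content of all promoters had a median of 52.7%. That of Klf1 lay below it, and those of the other members searched lay above it, from 58.3% for Klf7 to 77.7% for Klf11. The promoters compared were not matched for GC content, so the shares of GC-rich motifs cannot be set apart from base composition.

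**Figure D1:**
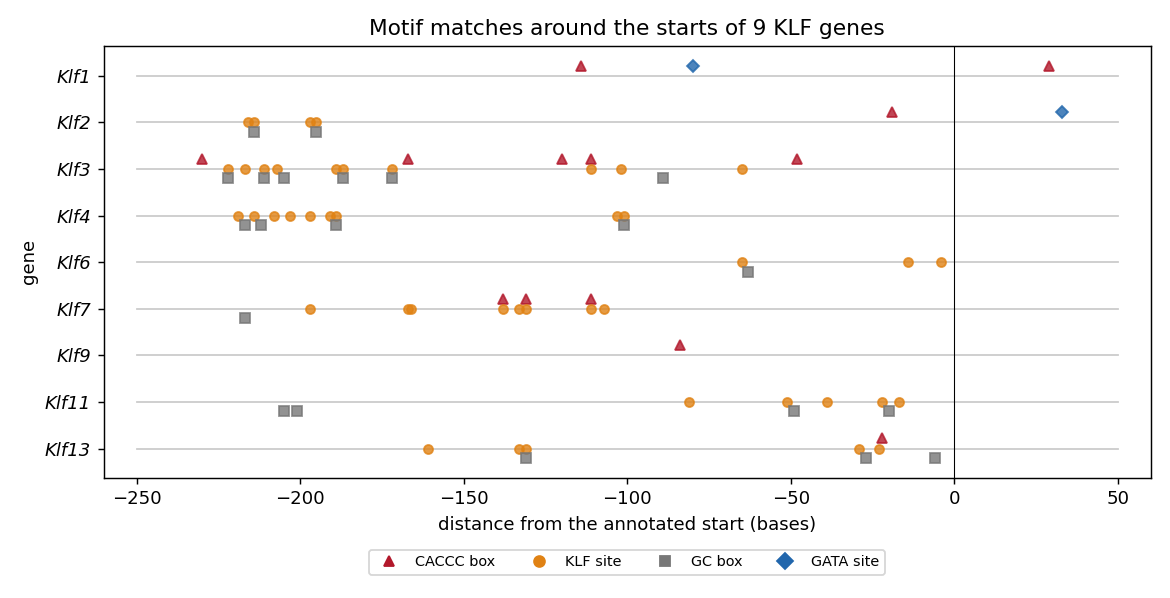
Motif matches around the annotated starts of 9 KLF genes, 1 line per gene, with the distance from the start in bases on the x axis (250 before to 50 after) and 1 symbol per match on either strand. Klf1 and Klf9 hold no KLF site and no GC box, and Klf3 holds 5 CACCC boxes.

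Array signals are log2 values, on which 1 unit is a 2-fold difference, and they were compared within a gene only, since probe sets differ in brightness. Over all 35557 probe sets the arrays of MEL had medians of 5.68 and 5.67, those of ES-EP 5.81 and 5.84. A gene was called different at an adjusted p under 0.05 (limma, Benjamini-Hochberg over all 19938 genes). By this rule 63.8% of genes were called, 20.5% as higher and 43.2% as lower in MEL, and the median difference of all genes, MEL minus ES-EP, was -0.15. Quantile normalization, median centring and cyclic loess brought this median to -0.03, -0.01 and -0.00, and the calls from 4096 higher and 8622 lower to 5344 and 5974, 5757 and 5644, and 5676 and 5460. With no detection calls, the 95th percentile of 1027 olfactory receptor genes served as the background level, 5.19 in MEL and 5.56 in ES-EP. Of these receptor genes 502 were themselves called, so a call alone does not show a difference in expression.

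Gata1, which the MEL line carries as a fusion, read 12.38 and 12.34 in MEL against 11.15 and 11.29 in ES-EP. It was 2.21-fold higher in MEL (difference 1.14 ± 0.08 SE, adjusted p = 9.88e-07), and its probe set may also read the fusion. All 6 erythroid markers analysed here lay above the background level in both cell types. Markers of other cells were mostly at background. Of 6 macrophage and neutrophil markers 0 lay above the level in MEL and 1 in ES-EP, and the summed signals (log2 of the linear sum) were 7.23 in both MEL arrays against 7.58 to 7.60 in ES-EP. Of 5 mast cell markers 1 and 2 lay above it, with sums of 6.72 to 6.77 and 11.04 to 11.22, the latter set by the IgE receptor chain Ms4a2 (3.95 in MEL, 11.05 in ES-EP). All 3 megakaryocyte markers measured of 5 were called higher in MEL, with sums of 10.06 to 10.17 and 7.76, among them the platelet chemokine Pf4 (8.85 against 3.89, the latter at background). Of 4 endothelial markers 1 lay above the level in MEL (Tek, 6.84) and 0 in ES-EP (sums of 7.56 to 7.58 and 6.90 to 7.01). For 4 lymphocyte markers 1 and 2 did (sums of 7.05 to 7.13 and 7.33 to 7.36), and for 6 embryonic stem cell markers 1 and 1 (sums of 6.95 to 7.13 and 7.26 to 7.38). The part of mast cell and megakaryocyte transcripts in the KLF values was not tested.

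Of the 10 KLF genes 8 were called, all 8 lower in MEL, although median centring gave 7 lower and 1 higher and cyclic loess 7 lower. The share called was 80%, against 63.8% of all genes, with 43.2% of all genes called lower. Klf6 and Klf9 were called and at least 2-fold lower in MEL, as were 4.27% of all genes, and 0 were at least 2-fold higher (5.72% of all genes). The 2 cell types' arrays did not overlap for 9 of the 10, all but Klf13, as for 81.8% of all genes. The median difference of the 10 genes was -0.54, against -0.15 over all genes, and the 10 lay above the background level in both cell types.

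**Figure D2:**
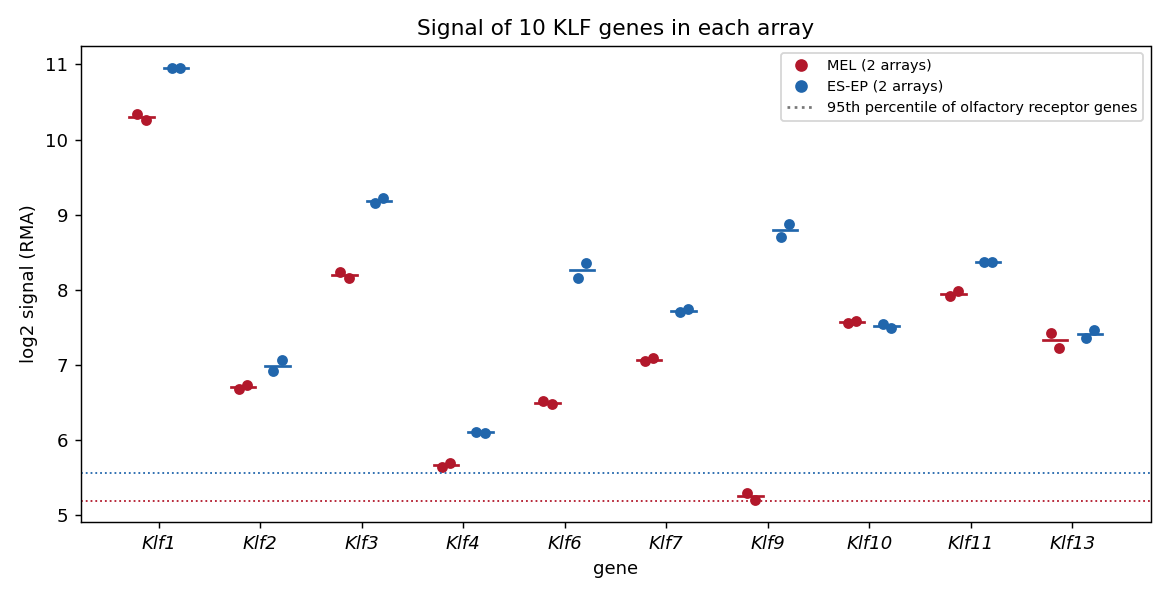
Signals of the 10 KLF genes on the log2 scale (y axis), 1 point per array (red for MEL, blue for ES-EP), a bar at each mean of 2 arrays, and dotted lines at the background level of each cell type (5.19 and 5.56). For Klf9 the MEL points lie just above the MEL background line while the ES-EP points lie at 8.70 and 8.88, and for Klf13 the points of the cell types overlap.

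Among the members that recruit acetyltransferases, Klf1 lay far above background, by 5.11 in MEL and 5.39 in ES-EP on the log2 scale. It read 10.34 and 10.26 in MEL against 10.95 and 10.96 in ES-EP, so each MEL array lay below both ES-EP arrays, by at least 0.61. The means were 10.30 ± 0.06 and 10.95 ± 0.01 (SD, n = 2), and Klf1 was 1.57-fold lower in MEL (difference -0.65 ± 0.08 SE, adjusted p = 5.4e-05). This difference ranked 4014th in size among the 19938 genes.

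Klf6, a broadly expressed factor that raises the cell cycle inhibitor p21, had the widest gap of this class. Its signal was 6.52 and 6.48 in MEL against 8.16 and 8.36 in ES-EP. The lowest ES-EP array exceeded the highest MEL array by 1.65, and both cell types were above background. Klf6 was 3.39-fold lower in MEL (difference -1.76 ± 0.09 SE, adjusted p = 4.59e-08), rank 813.

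Klf7, known from the development of sensory neurons, gave 7.06 and 7.09 in MEL against 7.70 and 7.74 in ES-EP. Its difference of -0.65 ± 0.08 SE (1.57-fold lower in MEL, adjusted p = 4.89e-05) was close in size to that of Klf1, with arrays that lay at most 0.04 apart within a cell type. Klf2, which acts beside KLF1 on embryonic globin genes and holds T cells in quiescence, read 6.67 and 6.73 in MEL against 6.91 and 7.06 in ES-EP. The gap between its groups was 0.18, little more than the 0.15 between the ES-EP arrays. Its difference was -0.28 ± 0.09 SE (1.22-fold, adjusted p = 0.0146), and the call was lost with median centring (-0.14, adjusted p = 0.18) and cyclic loess (-0.17, adjusted p = 0.0972), and without either MEL array or ES-EP array B (adjusted p from 0.0566 to 0.0978).

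Klf4, a factor of pluripotent and epithelial cells and of monocytes, was close to background in both cell types. It gave 5.64 and 5.69 in MEL against 6.11 and 6.09 in ES-EP, 0.47 and 0.54 above the respective background levels. The difference of -0.44 ± 0.08 SE was called (1.35-fold lower in MEL, adjusted p = 0.000797), and came to -0.29 with median centring and -0.23 with cyclic loess. Against a higher background, the 99th percentile of the olfactory genes (6.06 in MEL and 6.26 in ES-EP), Klf4 was below background in both and Klf9 was below it in MEL.

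Klf3, the CtBP-binding member, read 8.24 and 8.15 in MEL against 9.16 and 9.22 in ES-EP. Every MEL array lay at least 0.92 below every ES-EP array. With means of 8.20 ± 0.06 and 9.19 ± 0.04 (SD, n = 2) the gene was 1.99-fold lower in MEL (difference -0.99 ± 0.08 SE, adjusted p = 2.35e-06, rank 2016), just short of the 2-fold mark. Klf1 and Klf3 were thus both lower in MEL, and the call of Klf3 stood in all 16 settings run, the reported one included.

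Klf9 gave by far the largest difference among the 10 genes. KLF9 recruits SIN3A, and its gene is known to respond to glucocorticoids and thyroid hormone. The MEL arrays read 5.30 and 5.20, and the ES-EP arrays 8.70 and 8.88. The mean of 5.25 ± 0.07 in MEL was only 0.06 above the background level there, whereas that in ES-EP, 8.79 ± 0.12, was 3.23 above it (SD, n = 2). Klf9 was 11.6-fold lower in MEL (difference -3.54 ± 0.09 SE, adjusted p = 1.9e-10), rank 166, and the size of this fold depends on a MEL signal near background. Of the cell types, ES-EP alone had dexamethasone in the medium, but the media also differed in serum, puromycin and other added factors. The part of dexamethasone in the Klf9 difference was not tested.

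The other SIN3A-binding members differed little. Klf11, a factor induced by TGF-β, gave 7.91 and 7.98 in MEL against 8.36 and 8.37 in ES-EP and was 1.34-fold lower in MEL (difference -0.42 ± 0.08 SE, adjusted p = 0.00101; -0.27 with median centring). Klf10, its close relative and likewise an early TGF-β gene, read 7.56 and 7.58 in MEL against 7.54 and 7.49 in ES-EP. Its groups were 0.02 apart, and the difference of 0.05 ± 0.08 SE did not pass the test (adjusted p = 0.58), though with median centring it came to 0.20 (adjusted p = 0.048). For Klf13, which takes part in erythroblast maturation and in T cells drives the chemokine Ccl5, the signals were 7.43 and 7.23 in MEL against 7.35 and 7.47 in ES-EP. These overlapped, and the difference of -0.08 ± 0.09 SE did not pass the test (adjusted p = 0.455). Its sign turned with median centring (0.07), with cyclic loess (0.0049) and without MEL array B (0.02).

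**Figure D3:**
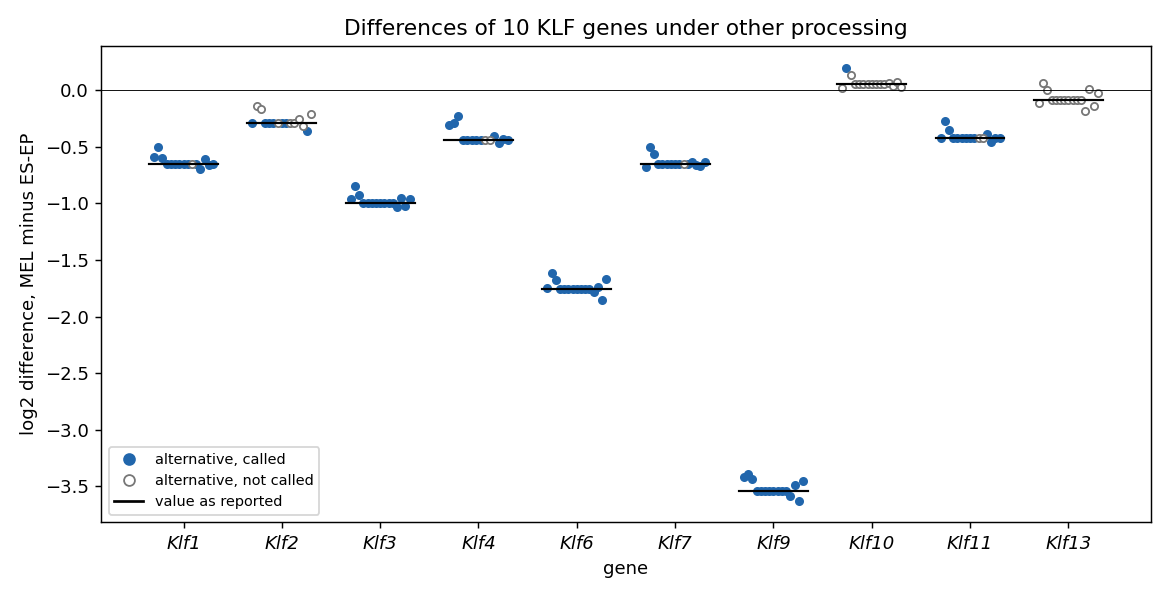
Differences of the 10 KLF genes (MEL minus ES-EP, log2, y axis) under the other ways of processing, 1 point per alternative, filled where called, with a bar at the value reported. Klf3, Klf6 and Klf9 stay called throughout, between -1.03 and -0.84, -1.86 and -1.61, and -3.63 and -3.39, while Klf13 straddles 0.

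The genes whose 4 signals ran closest to those of Klf9, each centred on its own mean, were the neurofilament gene Nefh (distance 0.06 on the log2 scale over 4 arrays), Ddah2 (0.09), which breaks down methylated arginine, and Cgnl1 (0.09), a junction protein. Nefh read 6.02 and 5.90 in MEL against 9.46 and 9.56 in ES-EP. Nearest to Klf10, the member with the highest difference, were Serpinb5, Chfr and St8sia6, at distances of 0.0069 to 0.0146, and like Klf10 they were nearly level across the arrays. Serpinb5 (3.69 to 3.79) and St8sia6 (3.99 to 4.07) were under the background levels, as was the mean of Cgnl1 in MEL (5.20 and 5.09 on the arrays), so their profiles there are those of background signal.

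The 7 other KLF genes had differences from -0.54 to -0.08, with 4 called lower in MEL (2 with median centring), beside 43.2% of all genes. Klf15, a regulator of metabolism in muscle and liver, was lower in MEL (5.49 against 6.03, difference -0.54 ± 0.08 SE, adjusted p = 0.000229). It was close to background, with both means below the 99th percentile of the olfactory genes (6.06 in MEL and 6.26 in ES-EP). Klf5, a growth factor-responsive gene of epithelia and vessels, was also lower (7.86 against 8.24, difference -0.38 ± 0.09 SE, adjusted p = 0.00295), as was Klf14, an intronless copy of Klf16 (7.50 against 7.84, difference -0.34 ± 0.09 SE, adjusted p = 0.00724, but 0.102 with median centring). Median centring brought Klf5 to -0.23 and cyclic loess brought Klf15 to -0.32, both still called. Because of this origin, Klf14 and Klf16 probes may share transcripts. Klf16 read 9.34 and 9.50 and was not called (adjusted p = 0.115). Klf8 (4.25 and 4.50), Klf12 (4.21 and 4.31) and Klf17 (4.45 and 4.53) lay below background in both cell types.

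Over all 17 KLF genes 12 were called lower and 0 higher in MEL (with median centring 7 members and 2 others were lower and 1 member, Klf10, was higher), against 43.2% and 20.5% of all genes. Klf8, below background in both cell types, is counted among the 12 and in the CtBP class. By class, 6 of 6 that recruit acetyltransferases were lower (median difference -0.54), or 5 with median centring or cyclic loess, which did not call Klf2. Of 3 that bind CtBP 2 were lower (-0.25), or 1, Klf3, after each rescaling, and of 6 that bind SIN3A 3 were lower (-0.25), or 2 with median centring, when Klf10 was higher. Klf15 and Klf17 were put in no class. Among SIN3A-binding members the differences ran from -3.54 for Klf9 to 0.05 for Klf10.

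The SP factors carry the same zinc fingers and favour GC boxes. Sp1 and Sp3, the ubiquitous pair, gave 8.66 against 8.49 (not called, adjusted p = 0.153) and 9.61 against 9.88 (difference -0.27 ± 0.08 SE, adjusted p = 0.012). Sp4, best known from neurons, went the other way from most KLF genes, with 8.38 and 8.43 in MEL against 7.60 and 7.54 in ES-EP. It was 1.78-fold higher in MEL (difference 0.83 ± 0.08 SE, adjusted p = 8.55e-06). Sp5, a Wnt target, read 5.39 and 5.77 (difference -0.38) and Sp9, a limb bud factor, 5.62 and 6.13 (difference -0.51), both called lower and not far above background. Sp6 (4.88 and 5.12), Sp7 (5.05 and 5.03) and Sp8 (4.20 and 4.89) were below background in both, and Sp2 was not measured under a single symbol. Of the 8 SP genes 1 was called higher and 5 lower, beside 20.5% and 43.2% of all genes. This split became 2 and 2 with quantiles or median centring and 3 and 3 with cyclic loess. Sp6 and Sp8, below background in both cell types, are counted among the 5. The call of Sp3 was lost with quantiles (adjusted p = 0.0556) and median centring (0.195), and that of Sp5 with all 3 rescalings (0.0505 to 0.18), while Sp1 was called higher with median centring (0.0146) and cyclic loess (0.0417).

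**Figure D4:**
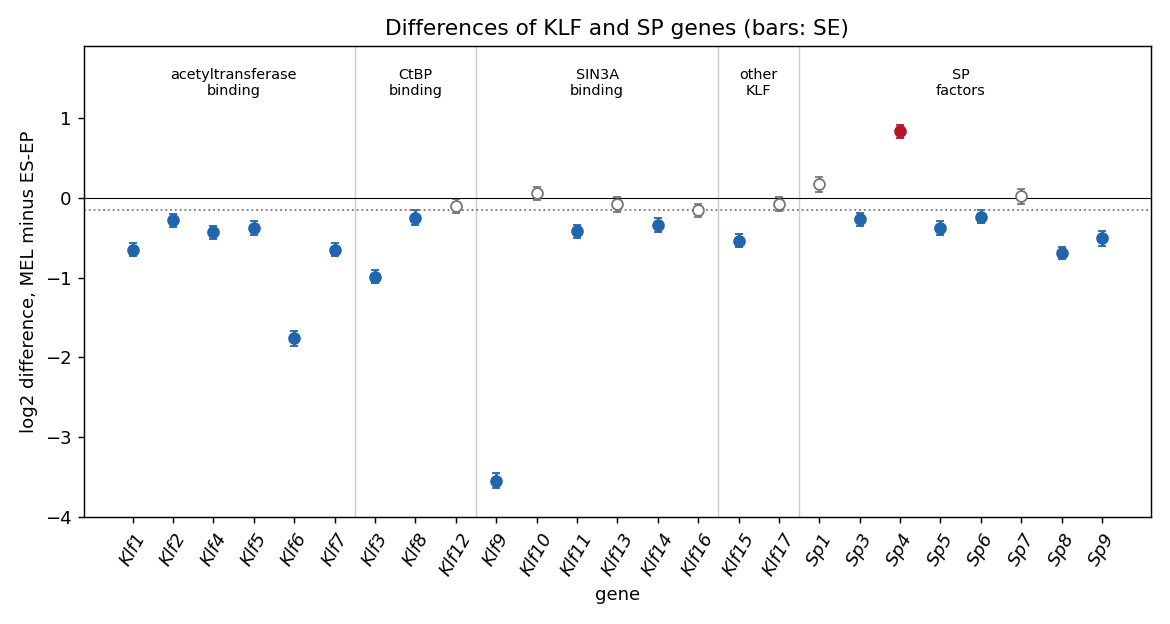
Differences of 17 KLF and 8 SP genes (MEL minus ES-EP, log2, y axis) with bars for SE, grouped by class, filled where called (blue lower, red higher in MEL), with a dotted line at the median of all genes (-0.15). Klf9 (-3.54) and Klf6 (-1.76) lie lowest, and Sp4 (0.83) is the only gene called higher, though cyclic loess called 3 SP genes higher.

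Genes known to be driven by KLF1 were read next, as a list of which 37 genes were analysed here. In MEL 27 were lower and 7 higher, beside 43.2% and 20.5% of all genes. The other 3, Dmtn, Pklr and Zbtb7a, did not pass the test, so 91.9% were called against 63.8% of all genes. The median difference of the list was -0.77. At least 2-fold lower were 12 (4.27% of all genes) and at least 2-fold higher 5 (5.72% of all genes). The splits into lower and higher after rescaling were 26 and 7, 25 and 8, and 25 and 7. Without Klf3, Klf8 and Gata1 the list gave 25 lower and 6 higher of 34, with the same median of -0.77.

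In heme synthesis, the class with the lowest median, all 9 measured genes were called lower in MEL, beside 43.2% of all genes. Their differences ran from -3.12 to -0.22 (median -1.47), and 8 stayed called with median centring or cyclic loess. Alas2, which makes the first intermediate of the pathway in red cells, read 8.78 and 8.73 in MEL against 11.84 and 11.90 in ES-EP, and was 8.69-fold lower in MEL (difference -3.12 ± 0.08 SE, adjusted p = 2.09e-10). All 4 cell cycle genes, E2f2, E2f4, Cdkn1b and Cdkn2c, were lower in MEL too, with differences from -1.31 to -0.36, and were called lower after each rescaling. These classes were drawn up after the values had been seen.

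Genes of the red cell membrane and its skeleton went both ways, with 7 of 13 lower and 5 higher in MEL, beside 43.2% and 20.5% of all genes. The anion exchanger Slc4a1 (band 3) read 5.93 and 5.82 in MEL against 11.25 and 11.44 in ES-EP, and was 44.3-fold lower in MEL (difference -5.47 ± 0.09 SE, adjusted p = 1.78e-11), a fold whose size is uncertain because the MEL mean of 5.87 lay below the 99th percentile of the olfactory genes (6.06). Epb42, which ties band 3 to the skeleton, gave 6.05 and 6.16 against 9.24 and 9.41 and was 9.32-fold lower (difference -3.22 ± 0.09 SE, adjusted p = 3.56e-10). The adducin Add2 was the opposite, at 9.91 and 9.77 in MEL against 7.42 and 7.78 in ES-EP, 4.71-fold higher in MEL (difference 2.24 ± 0.12 SE, adjusted p = 5.15e-08). Lower Klf1 signal stood beside lower signals of most, not all, of its targets, and a link between them was not tested.

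**Figure D5:**
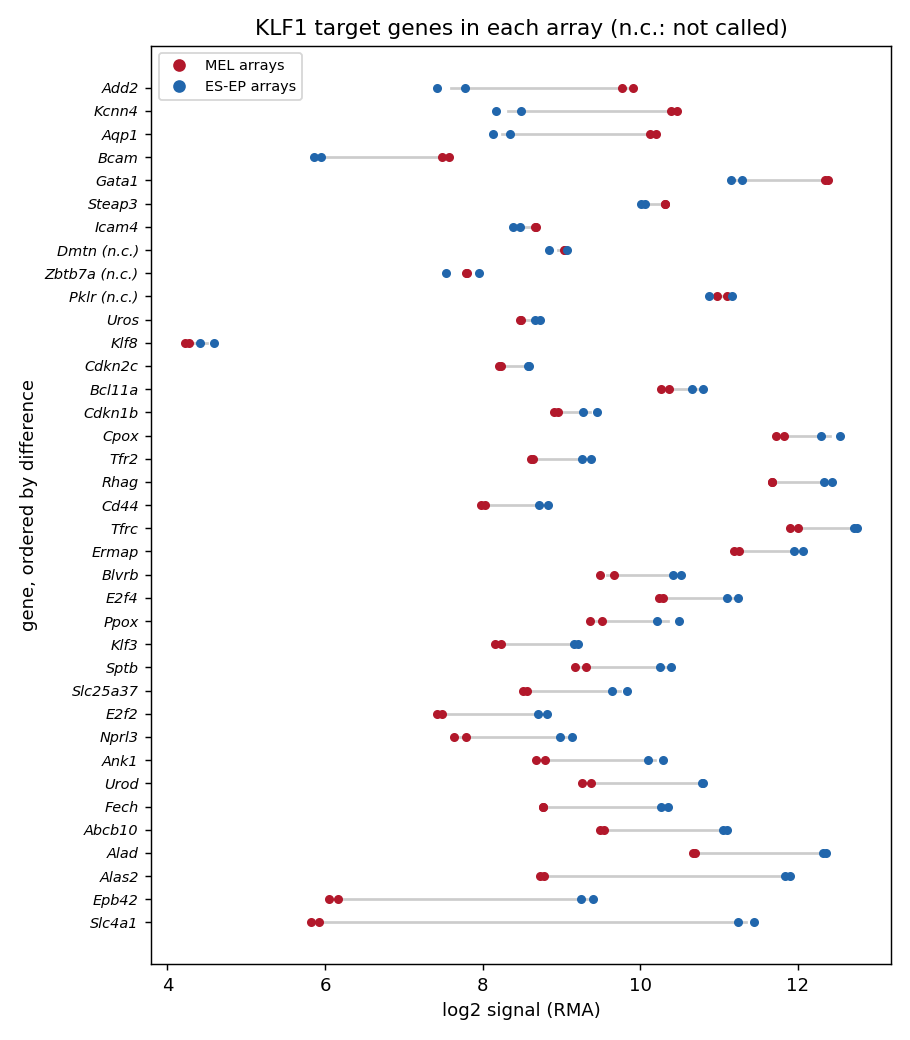
Signals of the 37 measured KLF1 target genes (x axis, log2), 1 row per gene ordered by difference, with 1 point per array (MEL red, ES-EP blue) and a grey line joining the means. Slc4a1 (44.3-fold lower in MEL, where it was close to background) is at the bottom and Add2 (4.71-fold higher) at the top.

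Cofactors of KLF1 went both ways, with 6 higher and 6 lower of 16 (median difference 0.04, beside 20.5% and 43.2% of all genes), 7 and 5 with quantiles or cyclic loess, and 8 and 4 with median centring (median 0.19). The largest differences were those of the acetyltransferases Crebbp (8.39 against 9.10, 1.64-fold lower in MEL, adjusted p = 3.51e-05) and Kat2b (6.89 against 7.43, 1.45-fold lower, adjusted p = 0.000835), of Zfpm1, the GATA1 partner FOG1 (10.16 against 9.52, 1.56-fold higher, adjusted p = 6.88e-05), and of the chromatin remodeling subunit Smarcc1 (9.99 against 10.47, 1.40-fold lower, adjusted p = 0.000938). Among 9 corepressor genes 4 were higher and 3 lower, or 4 and 1 with median centring. Ctbp2, a partner of KLF3, read 8.95 and 8.85 in MEL against 7.69 and 7.78 in ES-EP, and was 2.24-fold higher in MEL (difference 1.17 ± 0.08 SE, adjusted p = 7.55e-07), opposite to Klf3. Sap30 of the SIN3 complex was 1.53-fold lower (8.25 against 8.86, adjusted p = 0.000446), Sin3b 1.21-fold lower (8.17 against 8.45, adjusted p = 0.0127, but 0.18 with median centring), and Hdac2 1.19-fold higher (11.25 against 11.00, adjusted p = 0.0199).

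Klf9 is known as a gene that glucocorticoids induce, so 16 others known for this response were read beside it. Of these 11 were lower and 1 higher in MEL, with a median difference of -0.60 against -0.15 over all genes. The share called was 75%, beside 63.8% of all genes (43.2% lower), and 10 or 11 were called lower after each of the 3 rescalings. Tsc22d3, encoding the leucine zipper GILZ, read 6.89 and 6.78 in MEL against 8.70 and 8.74 in ES-EP and was 3.69-fold lower in MEL (adjusted p = 1.33e-08). Dusp1, a phosphatase of MAP kinases, was 2.50-fold lower (7.94 against 9.26, adjusted p = 4.42e-07) and the clock gene Per1 2.17-fold lower (7.50 against 8.62, adjusted p = 3.62e-06). Errfi1, an inhibitor of EGF receptors, was 2.26-fold higher in MEL (7.59 against 6.41, adjusted p = 4.37e-06). None of the 4 came to the -3.54 of Klf9, and dexamethasone cannot be told apart from cell type.

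Klf2, Klf4, Klf6 and Klf10 are also known as early response genes, and 18 genes of that response gave 10 lower and 4 higher in MEL (median difference -0.28), shares not far from the 43.2% and 20.5% of all genes. Jun was the farthest below, with 5.06 and 4.81 in MEL, under the background level, and 7.47 and 7.58 in ES-EP (adjusted p = 4.37e-09), so the size of its gap was not measured. Ier2 (7.11 against 8.09, 1.97-fold, adjusted p = 2.8e-06) and Fos (5.72 against 6.69, 1.95-fold, adjusted p = 2.19e-06) were lower too, with the MEL mean of Fos below the 99th percentile of the olfactory genes (6.06). The orphan receptor Nr4a1 went the other way, at 7.30 and 7.28 against 4.88 and 4.93, the latter under background (adjusted p = 1.46e-09), again with no measured size. After median centring 7 were lower and 4 higher.

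Early genes and mediators of the TGF-β pathway, to which Klf10 and Klf11 belong, gave 9 higher and 3 lower of 15 in MEL (median difference 0.44), beside 20.5% and 43.2% of all genes, and 10 and 3 with median centring or 10 and 2 with cyclic loess. The receptor Tgfbr2 read 5.97 and 5.92 in MEL against 7.60 and 7.65 in ES-EP and was 3.21-fold lower in MEL (adjusted p = 2.6e-08). The size of this fold is uncertain, since the MEL mean of 5.94 lay below the 99th percentile of the olfactory genes (6.06). Id1 was 2.79-fold lower (7.86 against 9.34, adjusted p = 1.89e-07). Smurf1, a ligase that removes SMADs (7.29 against 6.31, 1.98-fold, adjusted p = 5.66e-06), and the decoy receptor Bambi (7.50 against 6.60, 1.86-fold, adjusted p = 3.91e-06) were higher. Klf10, with a difference of 0.05, and Klf11, at -0.42, lay below the median of this list.

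Genes upstream or downstream of KLF2 and KLF4 in vessels and lymphocytes were mixed, with 3 higher and 6 lower of 13, near the 20.5% and 43.2% of all genes, and the split became 5 and 5 with quantiles or cyclic loess and 6 and 5 with median centring. The median difference was -0.21, which rescaling brought to -0.06 with median centring and to 0.02 by quantiles. Itgb7, an integrin chain under KLF2 in lymphocytes, was 3.31-fold lower in MEL (6.68 against 8.40, adjusted p = 8.83e-08). S1pr1, a KLF2 target in T cells, read 4.42 and 4.50 in MEL, under the background level, and 5.60 and 5.91 in ES-EP, just above it (adjusted p = 2.01e-06). Ccm2 was 1.64-fold lower (8.66 against 9.37, adjusted p = 2.27e-05), and Map2k5, the kinase above ERK5, was 1.46-fold higher (9.21 against 8.66, adjusted p = 0.000159).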

How the data were processed

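Affymetrix Mouse Gene 1.0 ST arrays measured 4 cultures, 2 per cell type. The authors deposited log2 signals, 1 column per array, and their methods name RMA in GeneSpring GX as the normalization. Other settings are not given in the sources used here. Probe sets with a single symbol (21789 of 35557, with 1621 holding several and 12147 none) stood for 19938 genes, each by its probe set of highest mean. MEL minus ES-EP was tested by two-sided limma (version 3.58.1 in R 4.3.3, functions lmFit and eBayes, 2 residual and 8.20 prior degrees of freedom), and p-values were adjusted over all genes by Benjamini-Hochberg. An exact permutation of 2 against 2 arrays cannot go below 0.333. The steps were tested on simulated data.

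The members and the 17 lists (196 entries) were chosen with earlier results of these data known. Named genes were the members, all other KLF and SP genes, up to 4 called genes per other list with the largest differences, Gata1, and the 3 genes nearest to the members with the largest difference in each direction. Weak genes, those not above the olfactory level of MEL and of ES-EP, get values without a direction unless they differ 2-fold. Alternatives were quantile normalization, median centring, cyclic loess, filters at the median or 25th percentile of mean signal, averaging probe sets per gene, testing every probe set, the replicate letter as a block, trended robust eBayes, Holm's adjustment, treat at 1.2-fold, leaving out arrays, the 90th and 99th olfactory percentiles, and promoters cut at the start. Promoters came from a RefSeq table (GRCm38.p6), handled in Python 3.11.15 (pandas 2.3.3, numpy 2.4.6), and plots from matplotlib 3.10.9. The number of arrays limits the precision.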

Additional observations from a re-analysis of the deposited data

How the results depend on the processing

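Of 149 values of the 10 KLF differences under other settings, 131 kept their direction and their side of the threshold, 14 lost the call, 1 gained it and 3 turned sign. The cause of these changes was not tested, except that Holm's adjustment and the test against a 1.2-fold difference are stricter by construction and the filters test fewer genes. Klf3, Klf6 and Klf9 were called in each of the 16 settings.

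With Holm's adjustment 2837 genes, 3 KLF members and 1 of the other KLF and SP genes were called, and Klf1 (-0.65, adjusted p = 0.155), Klf2 (-0.28, 1), Klf4 (-0.44, 1), Klf7 (-0.65, 0.138) and Klf11 (-0.42, 1) were not. Against a 1.2-fold difference 6391 genes, 5 members and 4 of the others were called, and Klf2 (-0.28, adjusted p = 0.741), Klf4 (-0.44, 0.0796) and Klf11 (-0.42, 0.104) were not. Of the 15 other KLF and SP genes 10 were called as reported, 6 with median centring and 4 of 6 at or above the median of mean signal, where 7117 of 9969 genes were called and Klf4 was left out. Klf2 lost its call with median centring (-0.14, adjusted p = 0.18), cyclic loess (-0.17, 0.0972) and all probe sets (-0.28, 0.0548). Median centring gave Klf10 a call (0.20, adjusted p = 0.048). Klf13 turned to 0.065 with median centring (adjusted p = 0.549), to 0.0049 with cyclic loess (0.967) and to 0.0153 without MEL replicate B (0.915).

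Leaving out each replicate gave 9889 to 11427 genes called, 7 to 8 members, 30 to 34 KLF1 targets and 6 to 9 other KLF and SP genes, the lowest, 6, without MEL A or without MEL B. It moved Klf2 between -0.36 and -0.21 and Klf13 between -0.18 and 0.02. A lone array is then assumed to vary like the other group. With the replicate letter as a block, 12709 genes, 8 members, 34 KLF1 targets and 10 other KLF and SP genes were called, and the block changed none of these member or list counts. The deviations of MEL A and ES-EP A had a correlation of -0.036 across 19938 genes, which does not settle whether the letters pair the samples. The GATA site count fell from 2 to 1 promoters without the bases after the start. No depth applies to arrays. Signals near background limit the sizes of some differences, among them those of Klf9, Klf4, Klf15, Slc4a1, Tgfbr2, Fos, Jun, Nr4a1, Pf4 and S1pr1.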
